A study of Mus musculus with 8 samples.

Results

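Among the H3K4me3 clusters of untreated mouse macrophages, 366 also held an H3K27me3 position, were still listed for H3K4me3 at 4 h after an inflammatory stimulus, and had no H3K27me3 position listed at 4 h. They are 366 of 21418 H3K4me3 clusters at 0 h, and 7.36% of the 4976 that had both marks at 0 h and kept H3K4me3 at 4 h. A cluster was taken when it touched the window of 250 bp to each side of an H3K27me3 position at 0 h, touched an H3K4me3 cluster at 4 h and touched no such window of H3K27me3 at 4 h. They were chosen by their list entries for H3K4me3 and H3K27me3 at both times, and neither Jmjd3 nor Pol II entered the choice. They are called lost clusters below, a word for their absence from 1 list and not for a tested change. The 4610 clusters with both marks at both times are called kept clusters. The 13194 clusters with H3K4me3 at both times and H3K27me3 at neither are called H3K4me3-only clusters. The remaining 438 of the 18608 clusters still listed for H3K4me3 at 4 h had H3K27me3 at 4 h only.

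The cells were bone marrow-derived macrophages, phagocytes grown in culture from marrow precursors, of female Fvb mice aged 6 to 8 weeks. They were untreated (0 h) or were given lipopolysaccharide, a bacterial cell wall component, together with interferon gamma, an activating cytokine. Chromatin immunoprecipitation and sequencing (ChIP-seq) was run for H3K4me3 and H3K27me3 at 0 and 4 h, RNA polymerase II (Pol II) at 0, 2 and 4 h and Jmjd3 at 2 h, from 500000000 cells for Jmjd3 and 100000000 for each other library. Each of these 8 combinations was 1 library with over 10000000 uniquely mapped tags, and its exact depth was unknown. No allele or genetic change is given for these mice.

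H3K4me3 is deposited at active and poised promoters, whereas H3K27me3 is written by the Polycomb system and goes with silencing. Promoters that carry both are called bivalent, and the state was first described at developmental genes that are held silent but ready for use. Jmjd3 is a demethylase that takes methyl groups off H3K27, and it is induced in macrophages by inflammatory signals. Pol II at a promoter marks initiation or pausing, and its loading or release follows the stimulus at inflammatory genes.

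The lists hold positions and an overlap count at each, a measure of tag pile-up that was not scaled to depth. With 1 library per group there is no replicate check and no p-value. Brackets give 95% intervals, exact binomial for shares, order-statistic for medians and Wald for differences of shares in percentage points. They cover counting error only, because regions of 1 library are not replicates. Coordinates are on mouse build mm8. Gene annotation on that build was not used here, so regions are named by position, and whether each cluster lies at a promoter was not analysed here.

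The lost clusters carried little H3K27me3 to begin with. Their highest H3K27me3 count at 0 h had a median of 10 (9 to 10), with quartiles of 9 and 11, where 9 was the lowest count in that list and 12 its median. In the kept clusters the median was 36 (35 to 38). The count was exactly 9 in 166 lost clusters (45.4%, 40.2 to 50.6) and 10 in another 77 (21.0%, 17 to 25.6). It reached 18 or more in 13 of them (3.55%, 1.91 to 6.00), against 75.3% (74.0 to 76.5) of kept clusters. These counts helped to choose the clusters through the list's own lower bound, so they are a description.

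Most lost clusters rested on a single H3K27me3 position. More than 1 position lay in 8 of them (2.19%, 0.948 to 4.26), against 2380 kept clusters (51.6%, 50.2 to 53.1). Of the 374 pairs of a cluster and a position, 351 (93.9%, 90.9 to 96.1) had the position inside the H3K4me3 cluster itself, at a median of 1069 bp (967 to 1206) from the nearer edge. The rule admits only positions inside a cluster or at most 250 bp from it, so this share is largely set by the selection. Of those inside, 27.4% (22.8 to 32.3) sat in the outermost 25% of the cluster's width on either side, against 36.4% (35.3 to 37.5) in kept clusters. Neighbouring H3K27me3 was also sparse at 0 h. Another position between 250 bp and 5 kb away was listed for 69 lost clusters (18.9%, 15.0 to 23.2), 64.8% (63.3 to 66.1) of kept clusters and 7.51% (7.07 to 7.97) of H3K4me3-only clusters.

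The share of clusters whose H3K27me3 was no longer listed at 4 h fell with its count at 0 h. It was 52.5% (46.9 to 58.1) of 316 clusters at a count of 9 and 35.5% (29.1 to 42.2) of 217 at a count of 10. At counts of 11 to 12 it was 18.1% (14.2 to 22.5) of 354, and at 13 to 17 it was 7.58% (5.6 to 9.98) of 607. At 18 to 35, 9 of 1132 clusters were lost (0.795%, 0.364 to 1.5), and at 36 or more 4 of 2350 (0.170%, 0.0464 to 0.435). A mark that fell and a count near the lower bound of 2 lists of unknown depth cannot be told apart for most of these clusters. The 4 h list was the longer one, with 89093 positions against 59684, and its lowest count was 10.

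**Figure D1:**
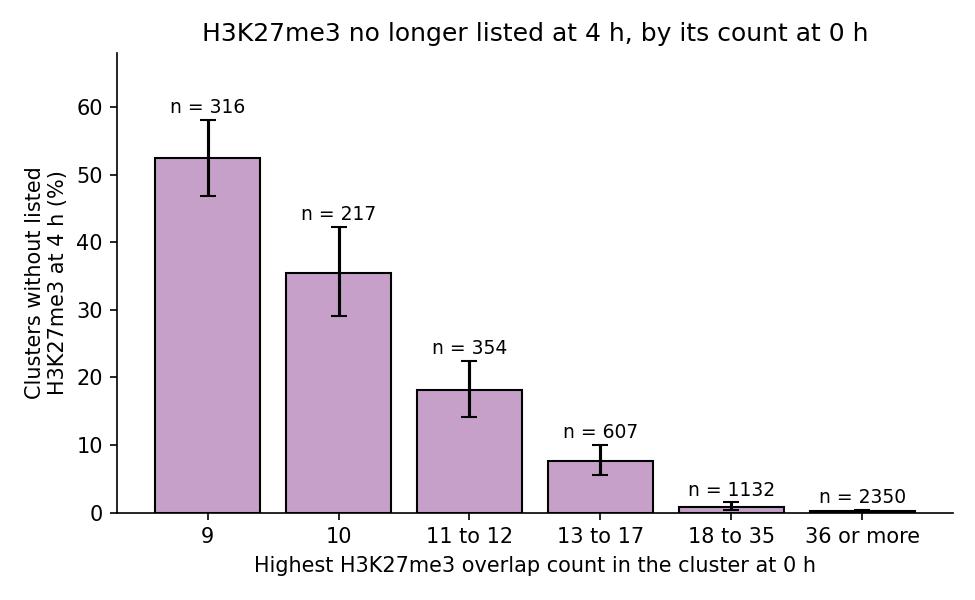
Share of clusters with both marks at 0 h whose H3K27me3 was not listed at 4 h (y axis, percent), by the highest H3K27me3 overlap count in the cluster at 0 h (x axis). Bars are shares with exact 95% intervals and n is the number of clusters; the share runs from 52.5% at a count of 9 to 0.170% at 36 or more.

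The 10 lost clusters with the highest H3K27me3 count at 0 h included only 1 with Jmjd3, and 5 of the first 10 lay within 2.35 kb of a position listed at 4 h. The highest count, 79, was at chr9:114411493-114413818, which lay 0.292 kb from a 4 h position and had no Pol II at any time. Its H3K4me3 cluster went from 2326 to 5230 bp and at 4 h reached an H3K27me3 window of 4 h, so H3K27me3 of 4 h was listed next to it. A count of 43 at chr17:23472802-23474799 also had a 4 h position at 0.387 kb and no Pol II. Others among the 10 stood farther from the mark. At chr2:145550867-145559046, with a count of 40, the nearest 4 h position was 69.5 kb away, and the highest Pol II count was 45 at 0 h, 151 at 2 h and 155 at 4 h. At chr5:149555519-149558404, with a count of 54, the nearest was 16.0 kb away and Pol II counts were 39, 36 and 57. The cluster at chr19:5794692-5809661, with a count of 22, was the one with Jmjd3 and lay 47.2 kb from a 4 h position.

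The lost clusters lay at widely different distances from the H3K27me3 of 4 h. The nearest 4 h H3K27me3 position was a median of 21.9 kb (16.1 to 27.1) away, with quartiles of 5.66 and 66.9 kb and a range of 0.292 to 1256 kb. The rule sets the lower end of this range. A position lay within 1 kb of 30 clusters (8.20%, 5.6 to 11.5), within 5 kb of 85 (23.2%, 19 to 27.9) and within 100 kb of 304 (83.1%, 78.8 to 86.8). Within 20 kb it was 174 (47.5%, 42.3 to 52.8), against 50.1% of all 18608 clusters still listed for H3K4me3 at 4 h and 31.0% (30.2 to 31.8) of H3K4me3-only clusters. The 50.1% takes in 4610 kept clusters and 438 with H3K27me3 at 4 h only, which touch a 4 h window by definition. H3K4me3-only clusters, which like the lost ones touch no such window, are the like group. Between 250 bp and 20 kb of the lost clusters, 682 H3K27me3 positions were counted at 0 h and 914 at 4 h. That was 1.34 times as many, less than the 1.49 times of the whole list. The rule chose clusters by H3K27me3 at both times, so this lower ratio is a description. Whether it goes beyond that choice was not tested. A position near several clusters was counted at each.

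At the edge of the rule, the lost clusters nearest to a 4 h position lay 0.292, 0.3, 0.306, 0.324 and 0.327 kb from it. The 5 kept clusters farthest from one lay at 0.245, 0.235, 0.220, 0.2 and 0.161 kb. Their highest H3K27me3 counts at 0 h were 79, 9, 12, 12 and 10 on the lost side and 9, 14, 12, 11 and 14 on the kept side. None of these 10 clusters held Jmjd3.

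Clusters with Jmjd3 lay farther from the mark of 4 h than those without. The median distance was 41.9 kb (27.1 to 55.3) in the 85 with Jmjd3 and 18.2 kb (13.7 to 23.2) in the 281 without. Within 20 kb it was 34.1% (24.2 to 45.2) with Jmjd3 and 51.6% (45.6 to 57.6) without, a difference of -17.5 points (-29.1 to -5.83). H3K4me3 width moved with this difference. With clusters lacking Jmjd3 weighted to the H3K4me3 widths of those with it, the difference was -6.62 points (-18.7 to 5.51), and weighted by H3K4me3 count it was -10.5 (-22.5 to 1.51). The highest H3K27me3 count at 0 h had a median of 10 (9 to 10) both with and without Jmjd3, and 22 was the highest count with Jmjd3.

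**Figure D2:**
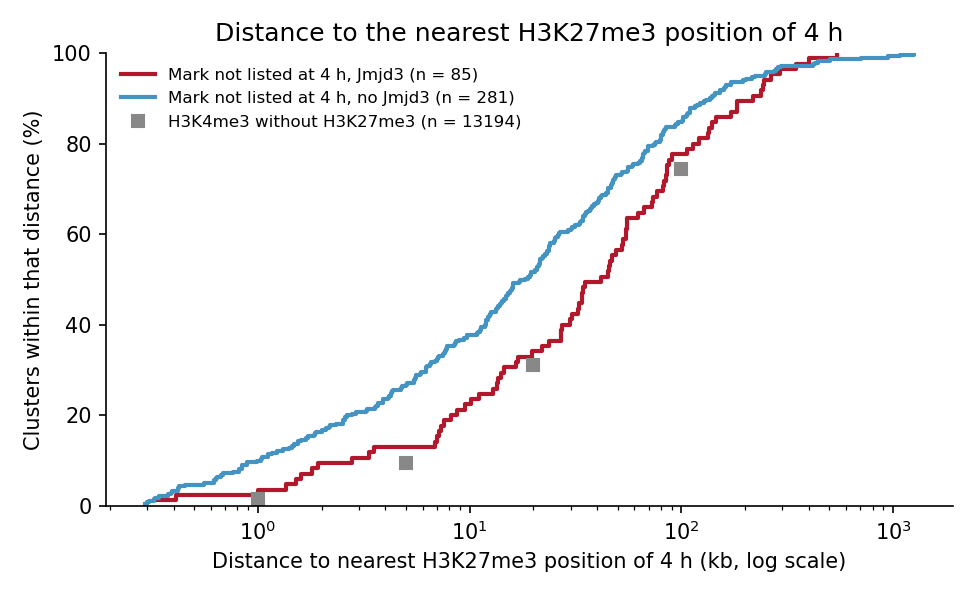
Cumulative share of clusters (y axis, percent) by distance to the nearest H3K27me3 position of 4 h (x axis, kb, log scale), for the 85 lost clusters with Jmjd3 and the 281 without, as lines. Squares give H3K4me3-only clusters at 1, 5, 20 and 100 kb; the line with Jmjd3 reaches 34.1% at 20 kb and the one without reaches 51.6%.

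The most isolated lost clusters lay far from any H3K27me3 position listed at 4 h. At chr4:94046720-94049691 the nearest 4 h H3K27me3 position was 1256 kb away, and Pol II counts were 54, 129 and 112 at 0, 2 and 4 h. At chr17:53151993-53155961 it was 1083 kb away, with Pol II counts of 58, 118 and 99. Next came chr12:22326688-22327974 at 947 kb, with low Pol II counts of 9, 13 and 14. At chrX:119219752-119222073, 706 kb from a 4 h position, the Pol II count was 9 at 0 h. Pol II was not listed there at 2 or 4 h. The fifth farthest, chr10:13557851-13560401 at 544 kb, was the only one of the first 5 with Jmjd3. Its Jmjd3 position lay 43 bp from the H3K27me3 position of 0 h, its Pol II counts were 14, 90 and 44, and its H3K4me3 cluster widened from 2551 to 4155 bp.

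Jmjd3 was listed at 2 h in 85 of the 366 lost clusters (23.2%, 19 to 27.9), against 15.3% of all clusters still listed for H3K4me3 at 4 h. It was in 8.16% (7.38 to 8.98) of kept clusters, a difference of 15.1 points (10.7 to 19.5), and in 17.7% (17.1 to 18.4) of H3K4me3-only clusters, a difference of 5.51 points (1.14 to 9.89). In each class of H3K27me3 count from 9 to 17 the share was higher in lost than in kept clusters. At a count of 9 it was 20.5% (14.6 to 27.4) of lost and 12% (7.27 to 18.3) of kept clusters, and at a count of 10 it was 28.6% of lost and 10.7% of kept ones. With kept clusters weighted to the lost ones by class of H3K27me3 count, the difference was 13 points (7.95 to 18.1). The top class took in every count above 11, so counts were not equal within it.

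At equal H3K4me3 count the excess of Jmjd3 over kept clusters was small, with an interval that held 0. The median H3K4me3 count at 0 h was 155.5 (141 to 164) in lost, 51 (49 to 53) in kept and 156 (153 to 158) in H3K4me3-only clusters. With kept clusters weighted to the lost ones by that count, Jmjd3 was in 21.5% of them, and the difference was 1.73 points (-3.47 to 6.93). Against H3K4me3-only clusters, weighting by H3K4me3 count left 5.29 points (0.919 to 9.67), and weighting by H3K4me3 count and width left 3.88 (-0.501 to 8.26). In H3K4me3 count the lost clusters thus stood closer to H3K4me3-only clusters than to kept ones. At equal H3K4me3 count the intervals of both Jmjd3 differences overlapped, so which group was closer in Jmjd3 share was not settled.

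Where Jmjd3 was present in lost clusters, it lay close to the H3K27me3 position of 0 h, and so it did in kept clusters. Both positions had to touch the same H3K4me3 cluster, which bounds the distance. In lost clusters the nearest pair was a median of 209 bp (158 to 300) apart, and it was under 500 bp apart in 64 of 85 clusters (75.3%, 64.7 to 84.0). In the 376 kept clusters with Jmjd3 the median was 152 bp (117 to 188) and the share 77.7% (73.1 to 81.8). In the lost clusters with Jmjd3 and Pol II of 2 h, the nearest Jmjd3 and Pol II positions were a median of 99.5 bp (66 to 161) apart. A cluster could hold several Pol II positions but mostly held a single H3K27me3 position. These distances are therefore not on equal terms. The 85 clusters held 110 Jmjd3 positions, with more than 1 in 17 of them. Their highest Jmjd3 count had a median of 11 (11 to 13) and a maximum of 48, in a list whose lowest count was 9 and median 10.

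Pol II was present at most lost clusters before the stimulus. It was listed at 0 h in 270 (73.8%, 68.9 to 78.2), against 64.8% of all clusters still listed for H3K4me3 at 4 h. The share was 24.6% (23.3 to 25.8) in kept and 79.2% (78.5 to 79.9) in H3K4me3-only clusters. It was listed in 278 at 2 h (76.0%, 71.2 to 80.2; 66.4% of all) and later, at 4 h, in 277 (75.7%, 71 to 80; 65.7% of all). As listed, the share of lost clusters with Pol II therefore stayed between 73.8% and 76.0% over the 3 times. The 0 h list stopped early on 7 chromosomes. Without the clusters past those ends, the 0 h share was 76.7% (71.9 to 81.0). The difference from kept clusters at 2 h was 46.1 points (41.6 to 50.7). It was smaller with kept clusters weighted by class of H3K27me3 count, 28.0 points (22.0 to 34.0), and at equal H3K4me3 count, 17.1 points (12.4 to 21.7). The top class of H3K27me3 count took in every count above 11, so counts were not equal within it. From H3K4me3-only clusters the difference, chromosome ends included, was -5.41 points (-9.97 to -0.85) at 0 h and -3.34 (-7.78 to 1.09) at 2 h. At equal H3K4me3 count the latter was -4.86 points (-9.27 to -0.445).

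By course, 250 lost clusters had Pol II at all 3 times (68.3%, 63.3 to 73.0; 58.0% of all) and 71 at none (19.4%, 15.5 to 23.8; 27.1% of all). Pol II absent at 0 h and listed at both later times accounted for 20, at 2 h only for 2 and at 4 h only for 3. Pol II of 0 h that was listed at neither later time accounted for 10 (2.73%, 1.32 to 4.97; 3.72% of all), at 0 and 4 h for 4 and at 0 and 2 h for 6. Pol II was listed at 2 h and not 0 h in 22 lost clusters (6.01%, 3.80 to 8.96), near the 7.02% of all clusters. It was listed at 0 h and not 2 h in 14 (3.83%, 2.11 to 6.33), against 5.48% of all. The Pol II list of 0 h ended early on 7 chromosomes, at ends that held 14 of the 366 clusters. With them left out, Pol II was new to the 2 h list in 14 of 352 (3.98%, 2.19 to 6.58), against 5.58% (5.25 to 5.93) of all.

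**Figure D3:**
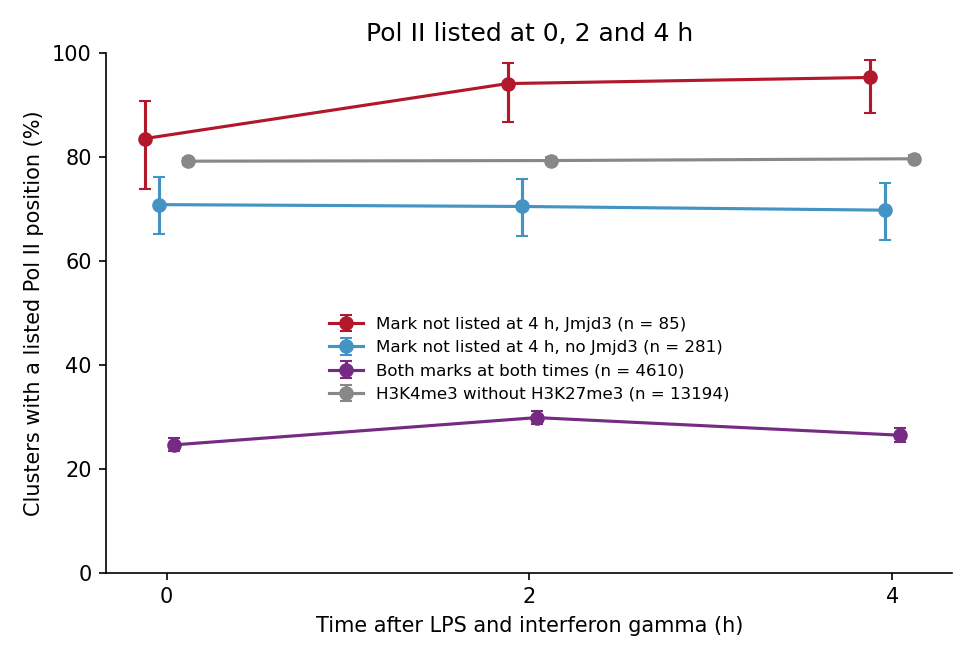
Share of clusters with a listed Pol II position (y axis, percent) at 0, 2 and 4 h after lipopolysaccharide (LPS) and interferon gamma (x axis), with exact 95% intervals. Shares at 0 h count clusters on the 7 chromosome ends, where the 0 h list had stopped, as lacking Pol II. Lost clusters are split by Jmjd3 (85 with, 281 without) and drawn beside 4610 kept and 13194 H3K4me3-only clusters; lost clusters with Jmjd3 are at 83.5%, 94.1% and 95.3%, and kept clusters stay between 24.6% and 29.8%.

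Jmjd3 and Pol II went together in the lost clusters. With Jmjd3, Pol II was listed at 0 h in 71 of 85 (83.5%, 73.9 to 90.7). By 2 h it was listed in 80 (94.1%, 86.8 to 98.1), and by 4 h in 81 (95.3%, 88.4 to 98.7). Without it, the shares were 70.8% (65.1 to 76.1), 70.5% (64.7 to 75.7) and 69.8% (64.0 to 75.1). The difference was 12.7 points (3.20 to 22.2) at 0 h and 23.7 points (16.3 to 31.0) at 2 h. This was not confined to the lost clusters. Pol II was listed in 94.1% of H3K4me3-only clusters with Jmjd3 at 0 h and in 99.0% at 2 h. In kept clusters with Jmjd3 it was 73.4% and 91.8%. At 0 h the lost clusters with Jmjd3 differed from the H3K4me3-only ones by -10.6 points (-18.6 to -2.67). From the kept ones they differed by 10.1 points (1.06 to 19.2). These 0 h shares count clusters on the 7 chromosome ends, where the 0 h list had stopped, as lacking Pol II. Pol II was absent at 0 h and listed at 2 h in 9 lost clusters with Jmjd3 (10.6%, 4.96 to 19.1) and in 13 without (4.63%, 2.49 to 7.78), a difference of 5.96 points whose interval held 0 (-1.03 to 12.9). Without the 7 chromosome ends these were 6 of 81 (7.41%, 2.77 to 15.4) and 8 of 271 (2.95%, 1.28 to 5.73). In kept clusters with Jmjd3 the share, ends included, was 20.2% (16.3 to 24.6), which the lost clusters with Jmjd3 differed from by -9.62 points (-17.3 to -1.93). Of the 71 with Jmjd3 and Pol II at 0 h, 0 lacked it at 2 h, and 3 counts of 71 would be a share of 4.23%.

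Pol II counts were also higher in the clusters with Jmjd3, and more so at 2 h than at 0 h. Median highest counts at 0, 2 and 4 h were 48 (35 to 64), 131.5 (103 to 172) and 106 (77 to 133) with Jmjd3, and 35 (31 to 39), 77 (65 to 90) and 62 (52 to 72) without. The median log2 ratio of 2 h to 0 h, where Pol II was listed at both, was 1.43 (1.14 to 1.53) with Jmjd3 and 0.95 (0.78 to 1.08) without. Over all clusters still listed for H3K4me3 it was 0.90, a shift that also holds any difference in depth between the libraries. The count was over 4-fold higher at 2 h in 19 of 71 clusters with Jmjd3 (26.8%, 16.9 to 38.6) and 11 of 185 without (5.95%, 3.01 to 10.4), against 7.69% of all clusters with Pol II at both times. The difference was 20.8 points (9.97 to 31.7), and 22.2 (11.6 to 32.9) at equal Pol II count at 0 h.

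The same rise accompanied Jmjd3 outside the lost clusters. It was over 4-fold in 17.3% (15.8 to 19) of H3K4me3-only clusters with Jmjd3 and in 17.5% (13.1 to 22.5) of kept clusters with Jmjd3. The lost clusters with Jmjd3 exceeded the H3K4me3-only ones with Jmjd3 by 9.42 points (-1.0 to 19.8), and by 4.52 (-5.91 to 15.0) at equal Pol II count at 0 h. Both intervals held 0.

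**Figure D4:**
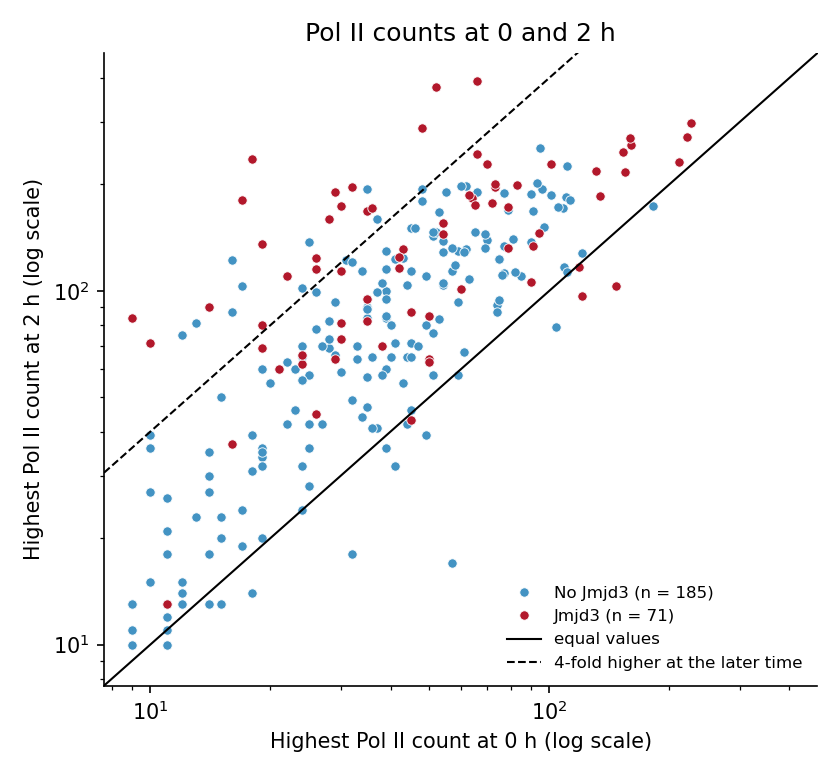
Highest Pol II overlap count at 0 h (x axis) and 2 h (y axis), both on log scales, for the lost clusters with Pol II listed at both times, 71 with Jmjd3 and 185 without. The solid line marks equal counts and the dashed line a count 4-fold higher at 2 h; 19 clusters with Jmjd3 and 11 without lie above the dashed line.

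The tallest Jmjd3 position in the lost clusters, with a count of 48, was at chr3:142465570-142469097. Pol II was not listed there at 0 h, its nearest position being 133 kb away, and its highest counts were 216 at 2 h and 155 at 4 h. The H3K4me3 cluster widened from 3528 to 7849 bp at an unchanged count of 198, and H3K27me3, at a count of 10 at 0 h, was listed 1.36 kb away at 4 h. This locus therefore combined strong Jmjd3, newly listed Pol II and a broader H3K4me3 domain, with H3K27me3 of 4 h listed nearby. A similar set of changes was seen at chr16:84584961-84587140, which had a Jmjd3 count of 24 that lay 64 bp from the H3K27me3 position of 0 h. Its H3K27me3 count had been 18, and the nearest 4 h position was 33.0 kb away. Pol II, 11.9 kb away at 0 h, had counts of 246 and 272 at 2 and 4 h, and H3K4me3 went from 2180 to 8041 bp with a count of 86 at 0 h and 196 at 4 h.

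Other clusters with tall Jmjd3 already had Pol II at 0 h and higher counts later. At chr11:117778041-117786699 (Jmjd3 count 43, at 5 positions) Pol II counts were 52, 377 and 294 at 0, 2 and 4 h, with H3K4me3 8659 bp wide at 0 h and 9022 bp at 4 h. At chr2:164744473-164749217 (Jmjd3 36) they were 48, 289 and 267, with H3K4me3 going from 4745 to 11809 bp. At chr16:10695918-10700557 (Jmjd3 35) they were 66, 392 and 319, with H3K4me3 going from 4640 to 7668 bp. The nearest 4 h H3K27me3 position was 1.5 kb away there and 29.7 kb away at chr11:117778041-117786699. The chromosome 2 locus lay beside H3K27me3 at 4 h. Its widened H3K4me3 cluster reached an H3K27me3 window of 4 h, and the nearest 4 h position lay 0.335 kb from its 0 h cluster. At chr11:82833407-82837558 (Jmjd3 20) Pol II counts were 28, 160 and 172 and H3K4me3 went from 4152 to 9176 bp, with H3K27me3 of 4 h 73.6 kb away.

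At other clusters with tall Jmjd3 the H3K4me3 width changed by less than 1.5-fold. At chr19:5794692-5809661 (Jmjd3 26) H3K4me3 was 14970 bp wide at 0 h and 12909 bp at 4 h, and Pol II counts of 222, 272 and 288 were high at every time. At chr2:90374268-90382900 (Jmjd3 20) the width was 8633 and then 8772 bp, while Pol II counts were 30, 174 and 181. At chr4:130063309-130068812 (Jmjd3 22) it was 5504 and then 6821 bp, with Pol II counts of 19, 136 and 91. The fourth tallest, chr13:118142440-118145993 (Jmjd3 35), lay 4034 kb beyond the last Pol II position of 0 h on its chromosome, so its Pol II counts of 86 and 94 at 2 and 4 h cannot be read as newly listed.

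Of the 5 clusters with the tallest Pol II at 2 h among those where it was not listed at 0 h, 3 lay on such chromosome ends, at chr18:82825309-82828262, chr14:121239500-121245294 and chr16:91614486-91625785. The other two were the chromosome 16 and chromosome 3 loci described above. Pol II that was listed at 0 h and at neither later time had low counts. The tallest of these 10 clusters were chr4:108902904-108906508, with a count of 28, and chr2:72274026-72279561, with 26, and none of the first 5 held Jmjd3. Both kept broad H3K4me3, 3605 and then 3488 bp and 5536 and then 4743 bp.

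The typical H3K4me3 width differed little between 0 and 4 h. The median width of lost clusters was 3330 bp (3072 to 3619) at 0 h and 3345 bp (3193 to 3620) at 4 h. The median log2 ratio was -0.03 (-0.07 to 0.02), beside -0.03 over all clusters still listed. Clusters with Jmjd3 were wider at both times, with medians of 4431 bp (4138 to 5002) and 4752 bp (4155 to 5310), against 3031 bp (2815 to 3216) and 3100 bp (2764 to 3310) without. Their median log2 ratio of 0.02 (-0.11 to 0.12) did not stand apart from the -0.04 (-0.09 to 0.01) of those without. The split lay in the tails of the distribution. At 4 h the cluster was over 1.5-fold wider in 14 of 85 with Jmjd3 (16.5%, 9.31 to 26.1) and 21 of 281 without (7.47%, 4.69 to 11.2), against 7.77% of all. It was over 1.5-fold narrower in 2 with Jmjd3 (2.35%, 0.286 to 8.24) and 22 without (7.83%, 4.97 to 11.6), against 8.93% of all.

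The difference in widening was 9.00 points (0.534 to 17.5), and 12 (3.78 to 20.2) at equal width at 0 h. The interval held 0 under 3 stricter rules. With no 4 h H3K27me3 position within 5 kb the difference was 6.85 points (-1.20 to 14.9). With H3K27me3 counts of at least 10 it was 4.95 points (-6.20 to 16.1), and with counts above the list median it was 1.77 (-21.6 to 25.2) over 59 clusters. H3K4me3-only clusters with Jmjd3 widened in 9.24% (8.10 to 10.5), which was 7.23 points (-0.744 to 15.2) below the lost clusters with Jmjd3. Kept clusters with Jmjd3 widened in 12.5% (9.33 to 16.3), a difference of 3.97 points (-4.59 to 12.5). The H3K4me3 count itself had a median log2 ratio of 0.09 (0.05 to 0.15) in lost clusters with Jmjd3 and 0.00 (-0.03 to 0.05) in those without. It was also above 0 with Jmjd3 elsewhere, at 0.09 (0.06 to 0.12) in kept and 0.06 (0.05 to 0.07) in H3K4me3-only clusters with Jmjd3.

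**Figure D5:**
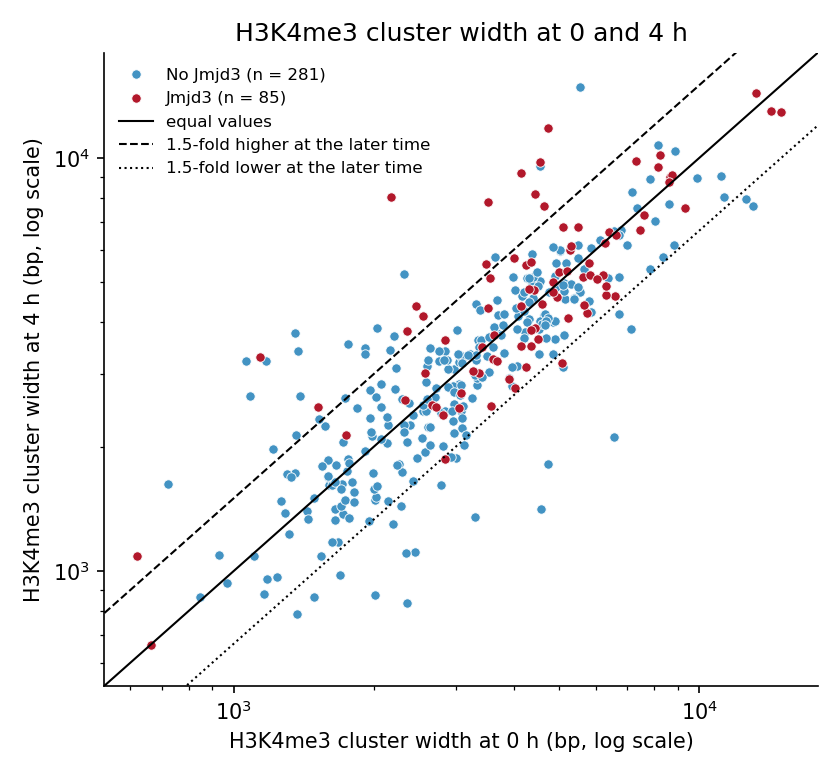
H3K4me3 cluster width at 0 h (x axis) and 4 h (y axis), in bp on log scales, for the lost clusters with Jmjd3 (n = 85) and without (n = 281). The solid line marks equal widths and the broken lines 1.5-fold wider and narrower; 14 clusters with Jmjd3 and 21 without lie above the upper line, and 2 and 22 below the lower one.

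Of the 10 largest width changes in either direction, 9 were in clusters with an H3K4me3 count at 0 h below the median of the lost clusters. After the 3.69-fold gain at chr16:84584961-84587140, the largest were 3.04-fold at chrX:6870054-6871117 and 2.89-fold at chr11:117765252-117766392. The chromosome 11 cluster held Jmjd3 (count 12), Pol II counts of 9, 84 and 32 and an H3K4me3 count of 29 at 0 h. The chromosome X cluster and its neighbour chrX:6871227-6872400 shared 1 cluster at 4 h of 3232 bp, so their gains of 3.04-fold and 2.75-fold include the joining of adjacent clusters. In all, 11 lost clusters (3.01%, 1.51 to 5.31) had a 4 h H3K4me3 cluster that reached an H3K27me3 window of 4 h, and 7 of them were among the 35 that widened. The largest decreases, to 0.31 of the 0 h width at chr16:93952595-93957171 and 0.32 at chr5:114086211-114092766, were in clusters without Jmjd3. Their H3K4me3 counts at 0 h were 16 and 189, and only the second had Pol II, with counts of 35, 89 and 61.

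Lost clusters were spread over the genome. Their share of clusters with both marks at 0 h ran from 4.25% on chromosome 1, 11 of 259, to 11.9% on chromosome 8, 29 of 243, and was 7.37% on chromosome X, 25 of 339. Another lost cluster lay within 100 kb of 27 of them (7.38%, 4.92 to 10.5).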

How the data were processed

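Per the file headers, each deposited list gives positions (Jmjd3, H3K27me3, Pol II) or clusters (H3K4me3) with a whole-number overlap count, a signal the authors did not scale to depth as far as headers and labels say. Coordinates follow mm8, the build named in the submitters' processing notes. Which aligner, caller, threshold or control was used is not given in the sources used here. Lowest counts differed between lists, from 9 to 11.

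Positions were widened to 500 bp windows, and 1 shared bp counted as overlap. A cluster's count is the highest in it; its 4 h width is that of the 4 h cluster sharing most bp. Comparison clusters were weighted to quartile classes, so an equal count or width means the same class, and the top class had no upper bound. No test was possible with 1 library per group. Members and lists were chosen with earlier results of these data known. Named regions are the 10 highest by Jmjd3 and by H3K27me3 count, and the 5 extremes by distance, Pol II course, width and nearness to the rule's edge; where fewer are printed, they are the first of that order, apart from a few shown for contrast. Alternatives varied windows, overlap, loss rule, count floors, list length, chromosomes and weighting. The tools were pandas 2.3.3, numpy 2.4.6 and scipy 1.17.1 under Python 3.11.15, with figures by matplotlib 3.10.9. The overlap code was tested on simulated data (4000 of 4000 states recovered) and checked against bedtools 2.31.1 (7 of 7 counts equal). Sequences were not used here.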

Additional observations from a re-analysis of the deposited data

How the results depend on the processing

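No paired analysis was possible because each group was 1 library, and for the same reason no replicate could be left out. Of 148 alternative values, 135 stayed within the main interval or, for numbers of clusters, within 1.5 times; 78 of the 148 were chosen after seeing the data. The number of lost clusters was 200 with H3K27me3 counts of at least 10 at 0 h, 59 with counts above the list median and 527 with lists of equal length. Requiring no 4 h H3K27me3 within 5 kb gave a median distance of 36.8 kb, Pol II at 0 h in 79.4% and an excess of Pol II at 2 h over kept clusters of 53.1 points. Counts above the median gave 13.9 kb, 53.5 points and a median log2 width ratio of 0.059 (main value -0.03, with an interval that held 0), and lists of equal length gave 27.4 kb. Weighting kept clusters changed the Pol II excess to 28.0 (H3K27me3 count), 17.1 (H3K4me3 count) and 40.9 points (H3K4me3 width), and the Jmjd3 excess to 1.73 points (H3K4me3 count). The excess of Jmjd3 over H3K4me3-only clusters was 2.42 points (-1.07 to 5.90) with lists of equal length. Rules that demand more distance raise distances by construction; otherwise the cause was not tested. Unknown depth limits every statement on positions near a list's lowest count.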
